A study of Mus musculus with 4 samples.

Results

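The 5 genes described here are the mouse Cyp2b cytochrome P450 genes Cyp2b10, Cyp2b9, Cyp2b13, Cyp2b19 and Cyp2b23. They were found as the probes whose RefSeq accession maps to one of these symbols, which gave 5 of 39429 probes, 1 for each gene, and 5 of 20886 named genes. The family was chosen by its signals and differences on these same 4 arrays, so the values below are a description and carry no test. The samples are livers of male mice that lacked catalase (KO), which destroys hydrogen peroxide in peroxisomes, or were wild type (WT), each on a high-fat diet with 60.3% of calories from fat or a normal diet with 18%. The diets ran for 11 weeks, until 40 weeks of age. The 4 groups were KO on the high-fat diet, KO on the normal diet, WT on the high-fat diet and WT on the normal diet, with 1 array each and therefore no replicate. Neither the strain, nor the knockout allele, nor the number of animals per RNA sample is given in the sources used. On a log2 scale set to each array's 75th percentile, the brighter probe of Cat, the catalase gene, stood at 0.95 in KO on the high-fat diet, 1.13 in KO on the normal diet, 4.75 in WT on the high-fat diet and 4.89 in WT on the normal diet. Its other probe was lower in KO as well, and the labels do not say whether the probes lie in the deleted stretch.

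Cytochrome P450 enzymes of the CYP2B subfamily oxidise drugs, steroids and fatty acids in the endoplasmic reticulum with electrons passed on by the reductase Por. Cyp2b10 is the classical target of the constitutive androstane receptor CAR, encoded by Nr1i3, a nuclear receptor that moves to the nucleus after phenobarbital-like drugs and binds an upstream enhancer together with the retinoid X receptor. Cyp2b9 and Cyp2b13 are known in mice as liver genes of females, kept low in males by pulsed growth hormone acting through the transcription factor STAT5b. Cyp2b19 is known as a P450 of mouse keratinocytes.

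The proximal promoters are shown because the 3 genes that were detected moved together, and because a pair of them is nearly identical there. They are the 250 bases before the annotated start of each gene on chromosome 7, 5′ to 3′, from RefSeq on build GRCm38.p6. Each of the 5 genes had an entry in the promoter table. Capitals mark searched motifs where they were found on either strand, and none of the matches overlap. The motifs are AGGTCA, the half-site bound by CAR and related receptors, TTGCNNAA, an element of the C/EBP type, and ATAAAA, which resembles the box that positions transcription starts. TTCNNNGAA, the STAT5 element, was also searched. The Cyp2b10 window is chr7:25897408-25897657, the Cyp2b9 window chr7:26173159-26173408 and the Cyp2b13 window chr7:26061245-26061494, all on the plus strand. The Cyp2b19 window is chr7:26756892-26757141 on the plus strand and the Cyp2b23 window chr7:26686431-26686680 on the minus strand.
Cyp2b10: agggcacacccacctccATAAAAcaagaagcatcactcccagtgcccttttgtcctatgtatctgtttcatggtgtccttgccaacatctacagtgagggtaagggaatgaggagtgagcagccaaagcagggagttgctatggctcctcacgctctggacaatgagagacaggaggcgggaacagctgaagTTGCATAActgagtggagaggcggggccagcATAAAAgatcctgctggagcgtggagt
Cyp2b9: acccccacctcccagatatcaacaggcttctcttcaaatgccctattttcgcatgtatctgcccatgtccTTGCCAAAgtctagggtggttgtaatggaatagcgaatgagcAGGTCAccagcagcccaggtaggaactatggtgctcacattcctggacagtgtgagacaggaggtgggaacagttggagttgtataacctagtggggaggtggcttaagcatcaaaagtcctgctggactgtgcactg
Cyp2b13: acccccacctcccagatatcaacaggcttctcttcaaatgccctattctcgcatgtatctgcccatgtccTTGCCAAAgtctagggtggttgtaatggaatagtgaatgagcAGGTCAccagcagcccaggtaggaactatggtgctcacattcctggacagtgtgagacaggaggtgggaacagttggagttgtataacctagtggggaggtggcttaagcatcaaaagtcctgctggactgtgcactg
Cyp2b19: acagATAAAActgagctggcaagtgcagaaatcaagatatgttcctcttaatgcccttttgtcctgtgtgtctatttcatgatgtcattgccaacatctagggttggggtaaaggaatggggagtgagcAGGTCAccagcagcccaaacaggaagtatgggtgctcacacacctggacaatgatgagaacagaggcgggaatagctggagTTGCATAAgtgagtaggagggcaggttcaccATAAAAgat
Cyp2b23: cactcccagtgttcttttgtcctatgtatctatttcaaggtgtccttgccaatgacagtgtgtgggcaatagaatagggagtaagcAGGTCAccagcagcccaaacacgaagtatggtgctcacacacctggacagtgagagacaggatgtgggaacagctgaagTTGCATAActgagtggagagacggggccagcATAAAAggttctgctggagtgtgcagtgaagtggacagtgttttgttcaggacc

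The Cyp2b9 and Cyp2b13 promoters shared 248 of 250 bases, or 99.2%. They differed by T48C and C104T, where the Cyp2b9 base comes first and positions count from 1 at the 5′ end of the window. Cyp2b10 shared 70.0% of aligned positions with either of them, and pairs that include Cyp2b19 or Cyp2b23 shared 56.4% to 65.9%. Gaps count as aligned positions, and the alignments of the latter pairs spanned 271 to 296 positions. How far windows cut at offset starts lower these shares was not tested. A TTGCATAA match stood 58 bases before the start of Cyp2b10 and an ATAAAA match 27 bases before it, and the Cyp2b19 and Cyp2b23 windows held the same pair at other distances. The Cyp2b9 and Cyp2b13 windows held no ATAAAA match, and their TTGCNNAA match, TTGCCAAA, stood 180 bases before the start. AGGTCA was found in the windows of Cyp2b9, Cyp2b13, Cyp2b19 and Cyp2b23, and no match was found in that of Cyp2b10. TTCNNNGAA had no match in any of the 5 windows. Over 32851 promoter windows of the same length, 14.0% held AGGTCA, 9.56% TTGCNNAA, 17.0% ATAAAA and 7.02% TTCNNNGAA. The CAR-binding enhancer of Cyp2b10 is known to lie farther upstream than these windows.

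Cyp2b10 was bright on 3 of the 4 arrays. Its processed signal, its brightness after background subtraction in the scanner's intensity units, was 30550 ± 3060 in KO on the high-fat diet, 16560 ± 1660 in KO on the normal diet, 21120 ± 2110 in WT on the high-fat diet and 975 ± 97.6 in WT on the normal diet. The error after ± is the scanner's error model for 1 spot and does not include the spread between animals. In whole liver RNA fewer cells of a type and less RNA per cell cannot be told apart. The WT normal-diet array alone was low, and the probe was well above background on all 4 arrays by the scanner's own flag.

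Cyp2b9 and Cyp2b13 had the same order of arrays with a deeper low point. Cyp2b9 gave 2101 ± 210 in KO on the high-fat diet, 910 ± 91.1 in KO on the normal diet, 1186 ± 119 in WT on the high-fat diet and 22.2 ± 6.47 in WT on the normal diet. Cyp2b13 gave 4215 ± 422, 1199 ± 120, 1903 ± 190 and 24 ± 6.21 on the same arrays. On the WT normal-diet array neither probe was well above background, although the scanner's weaker test still placed both spots significantly above it. The lowest signal of any probe well above background on that array was 21.5, so both genes lay at the edge of detection there. Their spots read 75 and 75 in raw median brightness on that array over local backgrounds of 29 and 30, and no member's local background differed much between arrays, with a range of 25 to 32.

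Cyp2b19 and Cyp2b23 were not well above background on any array. The scanner's weaker test still placed Cyp2b19 significantly above background on every array, and Cyp2b23 on none. Cyp2b19 read 5.92 in KO on the high-fat diet, 11.2 in KO on the normal diet, 15.5 in WT on the high-fat diet and 9.55 in WT on the normal diet, with errors of 41.9% to 95.3%. Cyp2b23 read 5.23 to 6.10, with errors of nearly the whole signal. No fold is given for these 2 genes, since both sides of every comparison were below the limit. Of the 5 members, 3 could therefore enter the comparisons.

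**Figure D1:**
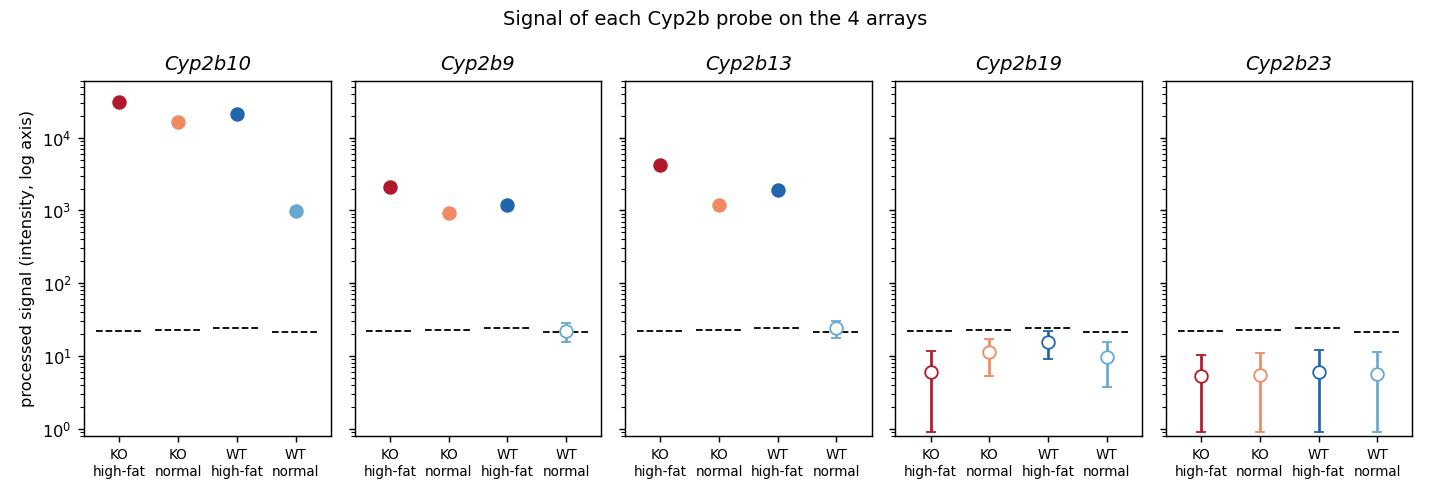
Processed signal of the 5 Cyp2b probes, in intensity units on a log axis, on the 4 arrays. Filled points were well above background and open points were not, bars are the scanner error (drawn no lower than 0.9), and dashed marks give the lowest signal well above background on that array. Cyp2b10, Cyp2b9 and Cyp2b13 are low on the WT normal-diet array alone, and Cyp2b19 and Cyp2b23 stay under the dashed marks.

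For comparisons, signals were put on a log2 scale and each array's 75th percentile was subtracted. A gene is said to have risen or fallen when it differed by 2-fold or more and its probe was well above background on at least 1 of the arrays compared. Where it was so on only 1 array, the dim array was given the larger of its lowest well-detected signal and what the probe itself read, and the size is written as "at least". For Cyp2b9 and Cyp2b13 the probe's reading was the larger, so their "at least" is the measured ratio and the scanner error leaves room for a smaller ratio.

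The comparison of KO with WT liver on the normal diet sets the genotypes side by side without the dietary load. With 1 array a group, the loss of catalase and other differences between the animals cannot be told apart in it. All 3 detected Cyp2b genes rose. Cyp2b10 had a scaled log2 signal of 4.05 in KO and -0.04 in WT, a difference of 4.09 ± 0.20, or 17.0-fold. Cyp2b9 stood at -0.14 in KO and -5.50 in WT and was at least 41.0-fold higher in KO, by 5.36 ± 0.44 on the log2 scale. Cyp2b13 stood at 0.26 in KO and -5.39 in WT, a difference of at least 5.64 ± 0.40. Among the differences upward of 14702 genes tested, Cyp2b13 ranked 1, Cyp2b9 ranked 2 and Cyp2b10 ranked 4. The ranks of Cyp2b13 and Cyp2b9 rest on dim WT readings. With normexp background correction they differed by 3.61 and 3.18, less than Cyp2b10 at 3.94. In this comparison 1.40% of the genes tested rose and 2.50% fell, which is given as background only, since these values chose the members.

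On the high-fat diet the same genotype comparison was small. Cyp2b10 differed by 0.36 ± 0.20 on the log2 scale between KO (4.73) and WT (4.37). Cyp2b9 differed by 0.65 ± 0.20 and Cyp2b13 by 0.97 ± 0.20, the last just short of 2-fold. Thus 0 of 3 rose, against 2.51% of 14844 genes that rose and 1.59% that fell, and all 3 values were positive. Quantile normalization and normexp background correction each placed 1 of 3 above 2-fold here.

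The high-fat diet in WT liver gave the largest differences of the family. Cyp2b10 rose by 4.42 ± 0.20, or 21.4-fold, with 4.37 on the high-fat diet and -0.04 on the normal diet. For Cyp2b9 the diet difference was at least 52.6-fold, or 5.72 ± 0.44, and for Cyp2b13 at least 78.1-fold, or 6.29 ± 0.40. Here 3 of 3 rose, against 1.78% of 14636 genes that rose and 2.31% that fell. This comparison and the genotype comparison on the normal diet share the WT normal-diet array, so 1 low array enters both. The other 2 comparisons share the KO high-fat array. With normexp background correction, which adds a constant to dim and bright spots alike, Cyp2b9 and Cyp2b13 differed by 3.5 and 4.18 between diets in WT and by 3.18 and 3.61 between genotypes on the normal diet. When both arrays had to be well above background, Cyp2b10 alone remained callable in these 2 comparisons.

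In KO liver the diet differences were smaller and graded across the family. Cyp2b13 rose by 1.61 ± 0.20, or 3.06-fold, with 1.87 on the high-fat diet and 0.26 on the normal diet. Cyp2b9 rose by 1.01 ± 0.20, which is 2.01-fold and sits on the threshold. Cyp2b10 differed by 0.68 ± 0.20, short of 2-fold. The background was 4.22% of 14905 genes that rose and 1.64% that fell, and median scaling or normexp correction left 1 of 3 above 2-fold.

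**Figure D2:**
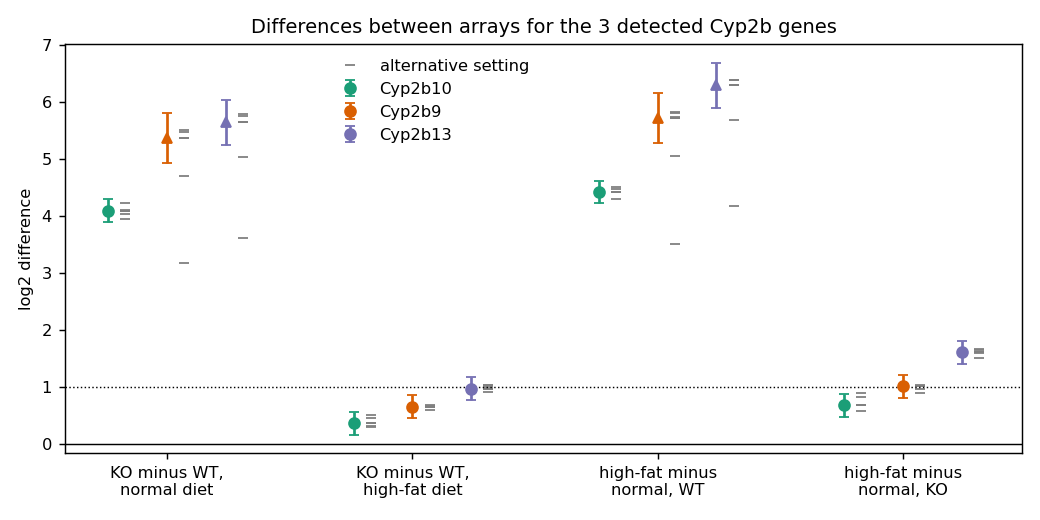
Log2 difference between 2 arrays for Cyp2b10, Cyp2b9 and Cyp2b13 in the 4 comparisons. Circles are measured differences, triangles rest on a dim array, bars are the scanner error, grey dashes are the same difference under other settings, and the dotted line marks 2-fold. The 2 comparisons that hold the WT normal-diet array lie at 4.09 to 6.29, and the other 2 at 0.36 to 1.61.

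The diet effect in KO minus that in WT was -3.73 ± 0.29 for Cyp2b10, -4.71 ± 0.49 for Cyp2b9 and -4.67 ± 0.45 for Cyp2b13. The values of Cyp2b9 and Cyp2b13 rest on the dim WT normal-diet reading, and normexp gave -2.54 and -2.58. With 1 array a group this difference was not tested. Across the arrays the scaled levels of all 3 genes ran in the order KO on high-fat diet, WT on high-fat diet, KO on normal diet and WT on normal diet. The middle pair lay close together, with KO on the normal diet minus WT on the high-fat diet at -0.33 ± 0.20 for Cyp2b10, -0.36 ± 0.20 for Cyp2b9 and -0.64 ± 0.20 for Cyp2b13. The highest pair was equally close for Cyp2b10, at 0.36 ± 0.20. Scanner error cannot say whether such distances exceed the spread between mice. From the highest array to the lowest the span was 4.77 ± 0.20 for Cyp2b10, at least 6.37 ± 0.44 for Cyp2b9 and at least 7.26 ± 0.40 for Cyp2b13.

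The sizes of the differences varied among the 3 genes, but their order in WT depended on how dim spots were treated. The diet difference of Cyp2b13 exceeded that of Cyp2b10 by 1.87 ± 0.45 in WT and by 0.93 ± 0.29 in KO on the log2 scale. With normexp the order in WT turned, at 4.18 for Cyp2b13 and 4.30 for Cyp2b10, and so did that between genotypes on the normal diet, at 3.61 for Cyp2b13 and 3.94 for Cyp2b10. The diet difference of Cyp2b13 exceeded that of Cyp2b9 by 0.61 ± 0.29 in KO and by 0.57 ± 0.60 in WT, the second within scanner error. Cyp2b9 and Cyp2b10 differed in their KO diet effects by 0.32 ± 0.29. Cyp2b9 and Cyp2b13 are close relatives, the probe sequences were not used here, and how far either probe also binds the other transcript was not tested.

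In the 2 comparisons that use the WT normal-diet array, no neighbouring gene of the cluster differed as much as the detected Cyp2b genes. In the other 2 some differed more, Cyp2a22 by -1.39 between genotypes on the high-fat diet and Cyp2g1 by -2.24 with the diet in KO. In the RefSeq gene order, Cyp2b10, Cyp2b13 and Cyp2b9 follow one another, and Cyp2b23 and Cyp2b19 come later. Of the 6 other protein-coding genes between Cyp2b10 and Cyp2b19, 5 had a probe, and Cyp2a4 was the single one detected. Cyp2a4, a steroid hydroxylase gene of female liver, rose in KO on the normal diet by 1.30 ± 0.20, but differed by 0.31 ± 0.20 between diets in WT. Its near-identical relative Cyp2a5 had no probe of its own accession, so the Cyp2a4 value may hold both. Cyp2s1, the P450 gene just before Cyp2b10, fell by 1.14 ± 0.24 in KO on the normal diet, a call lost with median scaling or normexp. Cyp2g1, the P450 gene just after Cyp2b19, rose by 1.04 ± 0.21 in that comparison and fell by 2.24 ± 0.21 on the high-fat diet in KO. Of the 15 testable genes listed around the family, 2 rose and 1 fell in KO on the normal diet, while with the diet in WT 1 rose, Cyp2a22, and 0 fell. Normexp removed 1 of the risers in the first comparison and Cyp2a22 in the second. Of all genes 1.40% rose and 2.50% fell in the first comparison, and 1.78% rose and 2.31% fell in the second.

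**Figure D3:**
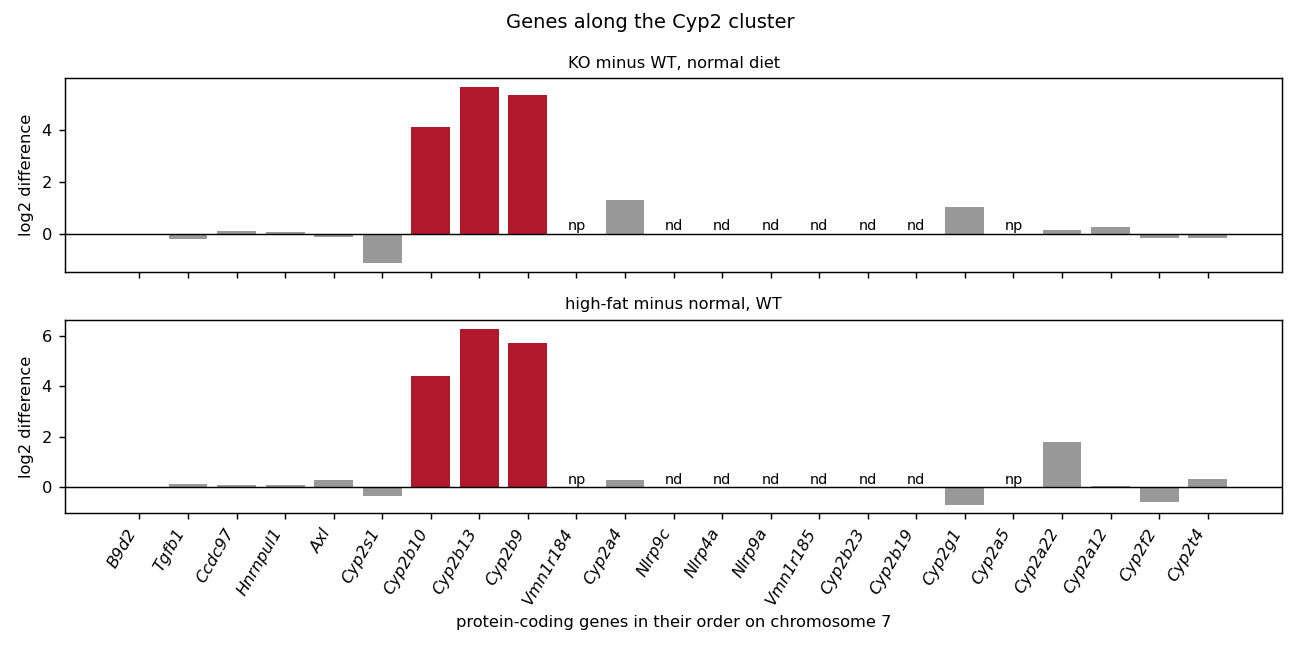
Log2 differences of protein-coding genes in their order along the Cyp2 cluster of chromosome 7, for KO minus WT on the normal diet (upper) and high-fat minus normal diet in WT (lower). Red bars are Cyp2b genes, nd marks genes not well above background on either array, and np marks genes without a probe. Cyp2b10, Cyp2b13 and Cyp2b9 stand side by side at 4.09 to 6.29, and the largest other bar is Cyp2a22 at 1.78.

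The receptor that drives Cyp2b10 moved less than its target. Nr1i3, which encodes CAR, stood at 3.02 in KO on the high-fat diet, 3.15 in KO on the normal diet, 2.95 in WT on the high-fat diet and 2.39 in WT on the normal diet. It differed by 0.76 ± 0.20 between genotypes on the normal diet and by 0.56 ± 0.20 between diets in WT, and its other probe by 0.86 and 0.63, all short of 2-fold. Like the Cyp2b genes, it was lowest on the WT normal-diet array. Nr1i2, the related receptor PXR, differed by 0.48 and 0.63 in these comparisons, Rxra, the partner of both receptors, by 0.21 and 0.26, and Por by 0.36 and 0.52. Among 35 genes of CAR signalling 0 rose in any of the 4 comparisons. From 1.40% to 4.22% of all genes rose in them, so 0 among so few genes lay near the background. Egfr, a growth factor receptor whose signal holds CAR inactive, fell by 1.42 ± 0.07 in KO on the normal diet and by 1.05 ± 0.07 in KO on the high-fat diet. The second of these calls was lost with quantile, cyclic loess or normexp processing. Its other probes differed by -1.25 and -1.28 between genotypes on the normal diet, and by -0.67 and -0.65 on the high-fat diet. With the diet in WT the probes disagreed on the call, at -0.74 for the brightest and -1.56 and -1.44 for the others. Gadd45b, a stress gene that binds CAR and is also its target, fell by 1.89 ± 0.21 in KO on the normal diet. It also fell with the diet in WT by 1.04 ± 0.21, a call lost with median scaling, cyclic loess or normexp. None of 20 genes for P450 electron transfer and haem synthesis rose or fell, and their medians lay between -0.14 and 0.07. With 1.59% to 2.50% of all genes falling, that count too lay near the background.

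Of 49 testable CAR target genes outside the family, 1 rose and 2 fell in KO on the normal diet, with a median of 0.19 against -0.01 for all genes. The share that rose, 2.04%, lay near the 1.40% of all genes, and 4.08% fell, against 2.50%. The one that rose was Gsta2, a glutathione transferase gene, by 1.15 ± 0.20. With the diet in WT 3 rose and 7 fell, with a median of -0.17 against -0.02. The share that rose was 6.12%, against 1.78% of all genes, and the count was 1 with normexp. The 3 were Abcb1a, a drug efflux transporter gene, by 1.60 ± 0.23, Gadd45a, a stress gene, by 1.17 ± 0.21, and Sult1e1, an oestrogen sulfotransferase gene, by 1.17 ± 0.22. Of the targets, 14.3% fell with the diet in WT, against 2.31% of all genes. With the diet in KO 1 rose and 14 fell, with a median of -0.19 against -0.07. There 2.04% rose, against 4.22% of all genes, and 28.6% fell, against 1.64%. The 14 became 9 with quantile normalization and 8 with cyclic loess. Related genes were among the 14, named here after their values were seen. They were Cyp2c29, Cyp2c37, Cyp2c38, Cyp2c39, Cyp2c50, Cyp2c54 and Cyp2c55, and the pair Ces2a and Ces2c. How far their probes also bind each other's transcripts was not tested, so the 14 are not separate observations. Cyp2c55, a P450 gene strongly induced through CAR, stood at -3.11 in KO on the high-fat diet, -0.63 in KO on the normal diet, -2.73 in WT on the high-fat diet and -0.92 in WT on the normal diet. It was thus lower on both high-fat arrays, and fell with the diet by 2.49 ± 0.21 in KO and by 1.81 ± 0.21 in WT. Cyp1a2, a P450 gene for caffeine and arylamine oxidation, fell with the diet by 2.17 ± 0.20 in KO and by 1.52 ± 0.20 in WT. Ces2a, a carboxylesterase gene, fell by 1.76 ± 0.20 in KO and 1.27 ± 0.20 in WT. The maternally expressed noncoding RNA Meg3 fell by 2.05 ± 0.24 in KO and 2.20 ± 0.23 in WT on its brightest probe, and its other 2 probes were dim on 3 of 4 arrays. Cyp3a11, a standard PXR and CAR target, fell with the diet by 1.54 ± 0.20 in KO and by 1.68 ± 0.20 in WT. Cyp2c29, another, fell by 1.19 ± 0.07 in KO and differed by -0.53 ± 0.06 in WT. These 2 genes, Gsta2, Abcb1a, Gadd45a and Sult1e1 were named after their values were seen. Between KO and WT on the high-fat diet 0 of 49 targets rose and 2 fell, with 1 riser under quantile, cyclic loess or normexp processing. Of all genes 2.51% rose and 1.59% fell there, and of the targets 4.08% fell.

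Many of the testable genes known to be higher in female than in male liver rose in the comparisons where the Cyp2b genes rose most. Of those testable outside the family, 12 of 25 rose and 0 fell in KO on the normal diet, and the 22 detected on each array of the pair had a median of 0.73. With the diet in WT 13 of 26 rose and 2 fell, and the median of 23 was 0.75. The list was drawn up with earlier results of these arrays known, and the pair of comparisons shares the WT normal-diet array. The background of risers was 1.40% and 1.78% of all genes, and that of fallers 2.50% and 2.31%. Those that fell with the diet in WT were Cyp3a16, from 4.86 to 2.95, and Ppp1r3g, from 1.75 to 0.64. The listed genes Cux2, A1bg, Sult2a1, Sult3a1 and Cyp3a44 were well above background on no array, and were named after their values were seen. Slc22a27, an organic anion transporter gene, had scaled log2 signals of 0.40 in KO on the high-fat diet, -0.73 in KO on the normal diet, 0.31 in WT on the high-fat diet and -3.23 in WT on the normal diet. It rose by 2.49 ± 0.21 in KO on the normal diet and by 3.54 ± 0.21 on the high-fat diet in WT. Hao2, which encodes a peroxisomal hydroxyacid oxidase, was at least 5.92-fold higher in KO on the normal diet, and in WT the high-fat over normal ratio was at least 7.02-fold. Vldlr, a lipoprotein receptor gene, rose by 2.37 ± 0.22 and 2.71 ± 0.22 in these comparisons, and Cyp4a14, a fatty acid hydroxylase gene, by 2.98 ± 0.20 and 4.13 ± 0.20. Cyp4a14 is also a known target of the fatty acid receptor PPARα. Between KO and WT on the high-fat diet 0 of 27 rose and 4 fell, with 1 riser under quantile or cyclic loess normalization. With the diet in KO 2 of 26 rose and 3 fell. Over all genes 2.51% rose and 1.59% fell between genotypes on the high-fat diet, and 4.22% rose and 1.64% fell with the diet in KO.

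Among male-biased liver genes some fell and 0 rose in each comparison. Of 32 testable, 7 fell in KO on the normal diet, 10 fell with the diet in WT, 8 fell in KO against WT on the high-fat diet, and 9 of 31 fell with the diet in KO. The first count was 4 with median scaling. The background of fallers was 2.50%, 2.31%, 1.59% and 1.64% of all genes in the same order. That of risers ran from 1.40% to 4.22%, so 0 risers among so few genes lay near the background. Moxd1, a monooxygenase-like gene, stood at 1.52 in WT on the normal diet, was at least 127-fold lower in KO on that diet and fell by 5.15 ± 0.23 on the high-fat diet in WT. Hsd3b5, a steroid dehydrogenase gene of male liver, fell in each comparison, by 1.70 ± 0.20 in KO on the normal diet and by 1.74 ± 0.20 on the high-fat diet in WT. Slco1a1, a transporter of steroid conjugates, fell by 1.02 ± 0.20 and 1.08 ± 0.20 in those comparisons, while Cyp4a12a differed by -0.54 ± 0.20 between genotypes on the normal diet and fell by 1.98 ± 0.20 with the diet in WT. Cyp4a12b, its near-identical copy, gave almost the same values.

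Of the growth hormone signalling genes tested, those that reached 2-fold were the SOCS feedback inhibitors Socs1, Socs2 and Socs3. Ghr, the receptor gene, differed by 0.13 ± 0.20 between genotypes on the normal diet and by -0.11 ± 0.20 between diets in WT, and Stat5b by 0.16 ± 0.20 and -0.07 ± 0.20. Socs2, a STAT5 target and inhibitor of the receptor, fell by 1.68 ± 0.06 in KO on the normal diet, with -1.63 and -1.76 on its other probes, but differed by -0.38 ± 0.06 with the diet in WT. Socs1 fell by 1.63 ± 0.22 in KO on the normal diet and by 2.20 ± 0.22 in KO on the high-fat diet, and Socs3 by 1.44 ± 0.20 and 1.22 ± 0.20. Of 31 testable genes of this pathway 0 rose and 3 fell in KO on the normal diet, and 0 rose or fell on the high-fat diet in WT. The 3 are 9.68%, against 2.50% of all genes that fell in that comparison. Of all genes 1.40% rose there, and 1.78% rose and 2.31% fell with the diet in WT. Counts of 0 among so few genes thus lay near the background.

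**Figure D4:**
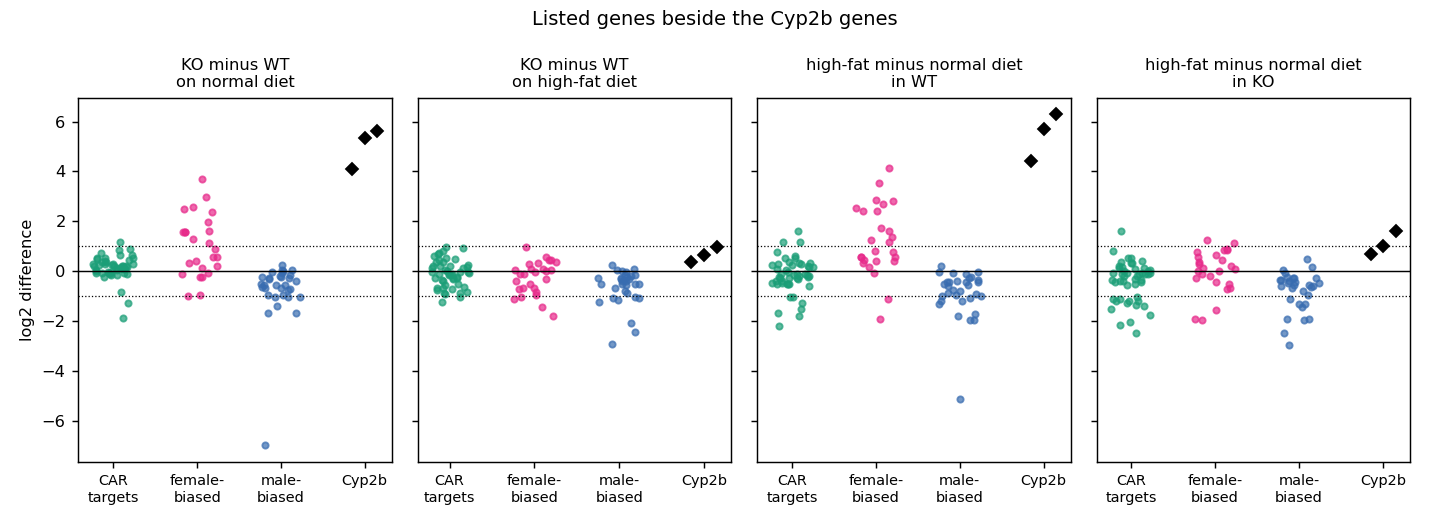
Log2 difference of each testable gene in 3 lists and of the 3 detected Cyp2b genes (black diamonds), in the 4 comparisons. Points are genes, spread sideways for display, and dotted lines mark 2-fold in either direction. In the panels that hold the WT normal-diet array the Cyp2b genes lie above every listed gene, and the female-biased points reach 3.68 and 4.13 while at most 3 CAR targets pass 2-fold upward.

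The genes whose profile over the 4 arrays was most like that of Cyp2b10 were looked for by the Euclidean distance between log2 values centred on each gene's mean, among 1377 genes. The nearest were Hao2 at a distance of 1.14, Themis and Slc22a27 at 1.16, Cyp4a14 at 1.21, Cidec at 1.22, Cyp2b9 at 1.23, Slc22a29 at 1.28 and Plin4 at 1.29. Hao2 and Themis were not well above background on the WT normal-diet array, and with such values raised to that array's limit, a choice made after seeing the data, Hao2 moved to rank 20 at 2.06 and Themis to rank 8 at 1.48. Slc22a27 was then the nearest, and the distances of the other 6 stayed as given. Themis is known as a T cell gene, and Cidec and Plin4 encode lipid droplet proteins. Around the mean of Cyp2b9 and Cyp2b13 the nearest genes were Cyp2b10 at 1.52 and Cidea, another droplet protein gene, at 1.98, followed by Chil1, Cidec, Hao2, Rad51b, Themis and Plin4 at 2.24 to 2.54. With dim values raised in the same way, Chil1, Hao2 and Themis moved to ranks 34, 20 and 10, while Cyp2b10, Cidea, Cidec, Rad51b and Plin4 held ranks 1 to 5. Cyp2b9 and Cyp2b13 lay 0.66 apart. Of 13639 genes well above background on the other 3 arrays, 61 were at least 2-fold lower on the WT normal-diet array than on every other array, with a dim WT value raised to that array's limit. A gap of at least 4 log2 units was reached by 3 of them, Cyp2b13, Cyp2b9 and Cyp2b10, with Cidea next at 3.40. With normexp the gaps of these Cyp2b genes were 3.61, 3.18 and 3.94 in the same order, all short of 4. The gaps of the other genes were not worked out with normexp. These distances rest on 4 arrays and are a description. Of 4 adipocyte markers 2 were detected, Cfd and Retn, and the list summed to 4.49 in KO on the high-fat diet, 0.488 in KO on the normal diet, 3.36 in WT on the high-fat diet and 0.594 in WT on the normal diet. The sum was carried by Cfd, higher with the diet by 3.59 ± 0.21 in KO and 2.81 ± 0.20 in WT, while Retn differed by -0.88 ± 0.24 and -0.55 ± 0.26. The part of these markers in the values of the droplet protein genes was not tested.

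**Figure D5:**
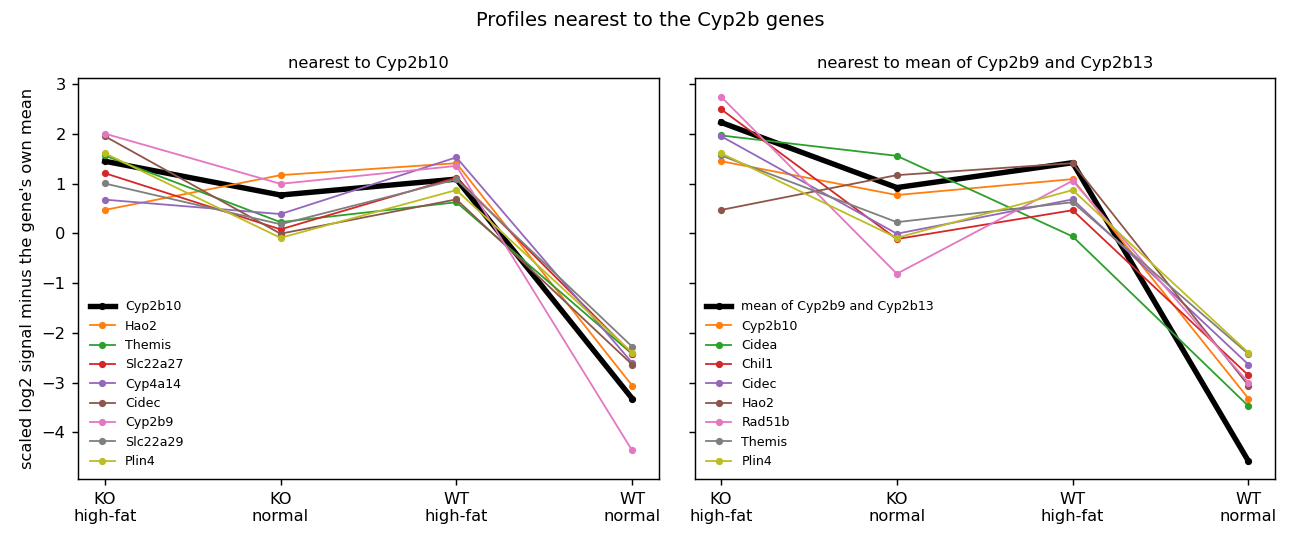
Scaled log2 signal minus each gene's own mean on the 4 arrays, for Cyp2b10 (left) and the mean of Cyp2b9 and Cyp2b13 (right) in black and for their 8 nearest genes in colour, at measured values also where dim. Lines join the values of 1 gene and stand for no order of the arrays. Every profile has its lowest point on the WT normal-diet array, and that of the Cyp2b9 and Cyp2b13 mean drops furthest in its panel.

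Across the series, the arrays had 23760 to 25184 of 39429 probes well above background, no saturated spot and a 75th percentile of 1002.5 to 1152 intensity units. All 10 hepatocyte markers were well above background on every array, with a summed scaled signal of 2890 in KO on the high-fat diet, 3360 in KO on the normal diet, 3310 in WT on the high-fat diet and 3600 in WT on the normal diet. The 6 macrophage markers on the array summed to 76.2, 27.7, 40.8 and 33.9 in the same order. Of 4 lung epithelium markers 1 was detected and of 6 intestinal ones 2, and the intestinal sum, 74.1, 46.6, 92.2 and 38.1, was also lowest in WT on the normal diet. Keratinocyte and squamous markers summed to 13.1, 2.73, 3.13 and 1.94. Of these, Ly6d rose with the diet by 4.12 ± 0.20 in KO and 1.70 ± 0.21 in WT and Sprr1a by 3.30 ± 0.21 and 1.54 ± 0.21, whereas Krt5 differed by -0.17 ± 0.28 and 0.04 ± 0.30. Their part in the Cyp2b values was not tested.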

How the data were processed

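Liver RNA of 4 samples, 1 a group, was measured on 1-colour Agilent arrays labelled with Cy3. Feature Extraction 11.5.1.1 gave each spot's intensity, a processed signal with background subtracted and its error, per the file headers. GeneSpring GX 7.3 was used by the authors, per the series' design text, while how it scaled the values is not stated there. On each array, 99.8% of probes in the deposited value table lay within 1% of the processed signal averaged over spots, so it holds linear intensity. Its column medians were 89.16 in KO on the high-fat diet, 72.38 in KO on the normal diet, 75.87 in WT on the high-fat diet and 79.87 in WT on the normal diet. It is not centred, and 1-colour values have no ratio direction.

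Control spots and outlier-flagged spots were left out, except that a probe with every spot flagged was kept. Spots of a probe were averaged as log2 signal, and each array's 75th percentile was subtracted. Accessions named 27508 probes through the RefSeq table of GRCm38.p6, and the brightest probe stood for a gene. The array grid names an older build, so that table gave names and gene order only, and coordinates belong to the promoter windows alone. The 2-fold rule is one of size, and no p-value is given. An additive fit of genotype and diet was not made, since it would take their interaction as error. Named genes were the members, up to 5 genes called at 2-fold with the largest differences per list, 6 fixed genes (Nr1i3, Nr1i2, Rxra, Por, Ghr, Stat5b) and the 8 nearest profiles. A few others are said in the text to have been named after their values were seen, and the genes of short counts and marker lists are named where they are counted. Nearest profiles were sought among named genes, predicted and clone-named ones left out, detected on 3 or more arrays whose range reached 1 log2 unit. Members and lists were chosen with earlier results of these data known. The lists share genes, and the 4 comparisons share arrays in pairs. The 4 arrays lay on 1 slide. Other settings were 3 scalings, normexp, the value table, all probes, 2 background filters, flagged spots kept and a higher value for dim spots. Work was done in R 4.3.3 with limma 3.58.1 and Python 3.11.15 with numpy 2.4.6, pandas 2.3.3, biopython 1.88 and matplotlib 3.10.9. The calculation of the 2-fold calls was run on simulated data without a spread between mice, which checks the calculation alone. The number of arrays limits the precision.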

Additional observations from a re-analysis of the deposited data

Results flagged for a closer look

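Hamp2, a hepcidin-like gene of the female-biased list, changed in opposite directions in the 2 genotypes and on the 2 diets. With the high-fat diet it fell by 1.92 on the log2 scale in KO and rose by 2.86 in WT. Against WT it fell by 1.1 in KO on the high-fat diet and rose by 3.68 in KO on the normal diet. These differences between effects were not tested, as each group has 1 array.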

How the results depend on the processing

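No replicate could be left out, and no paired analysis was possible because each group has 1 array. The planned normexp correction on mean spot signals was not run, since median spot signals are what the files hold. Normexp on median signals, and the setting that adds 2 scanner errors to dim spots, were chosen after seeing the data. Both raise dim spots by construction, and the cause of the other shifts was not tested. The direction of every Cyp2b10, Cyp2b9 and Cyp2b13 difference was kept in each setting that gave a value. The value table, all probes, flagged spots kept and no background filter repeated the main values, so they add nothing here. Each member has 1 probe with 1 spot. Where both arrays had to be well above background, Cyp2b9 and Cyp2b13 had no value in comparisons with the WT normal-diet array. With normexp correction the diet effect in KO minus that in WT was -2.54 for Cyp2b9 and -2.58 for Cyp2b13, and with dim spots raised by 2 scanner errors it was -4.05 and -4.07. Raised dim spots gave differences of 4.70 and 5.04 between genotypes on the normal diet and 5.06 and 5.69 between diets in WT for the same genes. The count of members that rose was 1 in place of 3 in KO on the normal diet, and on the high-fat diet in WT, when both arrays had to be well above background. It was 1 in place of 0 between genotypes on the high-fat diet with quantile normalization or normexp, and 1 in place of 2 on the high-fat diet in KO with median scaling or normexp. Quantile normalization placed the KO diet difference of Cyp2b10 at 0.90. Of the list counts under 3 scalings and normexp, 200 stayed within 1.5 times and 24 did not. The 200 include counts of 0 that stayed 0, which say little about stability. They also include counts that moved, as from 7 to 5 CAR targets that fell with the diet in WT under median scaling. Female-biased risers in that comparison went from 13 to 9 with normexp. Median scaling moved the median of all genes by 0.14 between genotypes on the normal diet and by -0.11 between diets in KO, and turned the split of all genes into 264 up and 285 down in place of 206 and 368, and 510 and 323 in place of 629 and 245, while on the WT diet comparison it gave 304 and 280 in place of 261 and 338. Normexp lowered those counts to 102 and 143, 269 and 138, and 121 and 152, and between genotypes on the high-fat diet to 142 and 122 in place of 373 and 236. For Cyp2b9 and Cyp2b13 the signal on the WT normal-diet array, at the edge of background, limits every difference that uses it.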
